A study of Oryza sativa with 44 samples.

Results

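The genes described here are 10 rice loci of the response to abscisic acid (ABA), the plant hormone of drought and seed drying, out of 58089 features in the deposited count table. They were taken by locus ID, and the set was chosen by role in the ABA response with their fold changes and levels in these libraries already known, so that their values are a description of the set. OsLEA3-1 (LOC_Os05g46480) encodes a late embryogenesis abundant (LEA) protein. RAB16A (LOC_Os11g26790), RAB16B (LOC_Os11g26780), RAB16C (LOC_Os11g26760), RAB16D (LOC_Os11g26750) and LIP9 (LOC_Os02g44870) encode dehydrins, a class of LEA proteins. OsNCED3 (LOC_Os03g44380) encodes an enzyme of ABA synthesis. OsbZIP23 (LOC_Os02g52780), OsbZIP46 (LOC_Os06g10880) and SNAC1 (LOC_Os03g60080) encode transcription factors. All 10 loci are in the table, which pairs no names with locus IDs. In the RefSeq gene table of assembly ASM3414082v1, 8 of the 10 names belonged to exactly 1 gene, and OsbZIP46 and SNAC1 were not found there by name.

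RNA was sequenced from 44 libraries of rice seedlings kept for 2 weeks in nutrient solution. With the background labelled DJ there were the CRISPR knockout lines osythdf1a, osythdf2a and osythdf3a and the DJ wild type. With the background labelled NIP there were the CRISPR knockout lines osythdf1b, osythdf1c, osythdf2b, osythdf3b, osythdf3c, osythdf4c and osythdf5c, the knockdown lines RNAi-OsYTHDC1A and RNAi-OsYTHDF2C, the overexpression line OE-OsYTHDF1A and the NIP wild type. Each line alters 1 gene for a YTH domain protein, a reader of N6-methyladenosine marks on RNA, and the series asked how this changes gene expression. There were 2 libraries of osythdf2a and 3 of each other group. The labels give neither the organ taken, the edited alleles, the promoter of the overexpression construct, the number of independent plants behind a line, nor any drought, salt or ABA treatment.

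ABA is made from carotenoids, and cleavage by 9-cis-epoxycarotenoid dioxygenases such as NCED3 is the step usually regarded as limiting. Bound ABA receptors inhibit PP2C phosphatases, which frees SnRK2 kinases to activate bZIP factors. These factors bind ABA-responsive elements in promoters of LEA and dehydrin genes, whose hydrophilic proteins protect cells during drying, cold and salt stress and accumulate in maturing seeds. SNAC1 is a NAC factor of stomatal guard cells and of the drought response in rice.

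Library totals ranged from 13541543 to 24099581 counts. In osythdf3a replicate 3, a pair of neighbouring loci on chromosome 9 (LOC_Os09g00999 and LOC_Os09g01000) took 12.5% of all counts, against 0.352% and 0.466% in the other osythdf3a libraries, so osythdf3a results are also given without it. Of 10 shoot marker loci, 9 had counts in every group and 1 was at 0 throughout, and their summed level lay between 10300 CPM (counts scaled by the library total) in osythdf3c and 73800 CPM in OE-OsYTHDF1A. Of 10 root marker loci, 6 to 10 had a count in a group, and their summed level lay between 20 CPM in osythdf5c and 568 CPM in osythdf2a. In bulk RNA, fewer cells of a type and less RNA per cell cannot be told apart. No source used here says that counting used strand or how reads shared by near-identical copies were assigned, so the values of the RAB16 genes, which are similar neighbours, are uncertain to that extent.

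OsLEA3-1 and RAB16A were lower in all 10 lines labelled NIP than in the NIP wild type, SNAC1 and LIP9 were lower in 9 of them, and RAB16C was higher in 6. In the lines labelled DJ, SNAC1 was higher and OsbZIP46 lower than in the DJ wild type in all 3. Over all genes, 34.2% of the tests against NIP were calls of higher and 32.3% of lower. Against DJ these shares were 31.1% and 35.9%. How many of all genes were called the same way in that many lines was not counted, so these counts are not read as particular to the loci. All NIP comparisons share the same 3 control libraries, and all DJ comparisons share theirs, so the comparisons are not independent of each other. Genes were called at an adjusted p under 0.05, and "edgeR adjusted p" below stands for the quasi-likelihood test of edgeR with the Benjamini-Hochberg method over all genes tested. Fold changes use TMM scaling, while CPM use library totals, and with library totals the median fold change of all genes moved by -0.25 to 0.31 on the log2 scale, so small fold changes can differ from the ratio of CPM.

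Calls were made for a large part of all genes in every comparison, and each count is read against that share. In osythdf4c, 1 of 9 tested loci was higher than in NIP and 8 were lower, where 35.6% of all genes were called higher and 31.2% lower. In RNAi-OsYTHDF2C it was likewise 1 higher and 8 lower, against 34.4% and 34.3% of all genes. In osythdf5c, 2 were higher and 6 lower (all genes, 31.6% and 31%). These 3 lines also had the lowest medians over the 9 loci, with log2 fold changes of -1.41, -1.42 and -1.53, while the medians of all genes were 0.04, 0 and 0.

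One locus was higher and 6 were lower in each of osythdf1b (all genes, 39.4% higher and 37.5% lower), osythdf2b (33.2% and 31.8%), osythdf3b (19.8% and 20.1%) and osythdf3c (41.8% and 36.7%). With library totals the split became 2 higher and 5 lower in both osythdf1b and osythdf2b. With that scaling, 49.7% of all genes were called higher and 28.1% lower in osythdf1b, and 42.1% and 24.1% in osythdf2b. In osythdf1c and in OE-OsYTHDF1A, 3 were higher and 5 lower, where 34.9% and 33.8% of all genes were called in osythdf1c and 32.1% and 31.2% in OE-OsYTHDF1A. In RNAi-OsYTHDC1A, 0 were higher and 5 lower (38.7% and 35.1%), and with library totals 3 were higher and 5 lower (55.8% and 22.4%). RAB16D was too low to be tested in any of the lines set against NIP.

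Against the DJ wild type, 5 of 10 loci were higher and 4 lower in osythdf1a (all genes, 37.5% higher and 39.5% lower), 5 higher and 3 lower in osythdf2a (20.9% and 30.9%), and 3 higher and 5 lower in osythdf3a (35% and 37.2%). Leaving out osythdf3a replicate 3 still gave 8 calls. RAB16D passed the filter on low counts only through osythdf2a, where it is 1 of the 5 higher loci and had to differ. Without it, 4 of 9 loci were higher and 3 lower in osythdf2a. Between the wild types, DJ set over NIP had 1 locus higher and 6 lower (37.7% and 37.4%). With library totals 2 were higher and 6 lower (49.9% and 25.8%). Scaling by library totals moved the background split by more than 10 percentage points in 11 of 14 comparisons. The greatest move was in RNAi-OsYTHDC1A, where 55.8% of genes were then called higher and 22.4% lower.

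OsLEA3-1, a LEA protein gene used as a drought marker in rice, was at 7.8 CPM or less in all 41 libraries outside the NIP wild type, against 58.5, 54.4 and 53.6 CPM in NIP, a gap of 45.8 CPM. The groups nearest to NIP were osythdf2a with 6.96 and 7.8 CPM and osythdf5c with 5.26, 6.28 and 5.7 CPM. In osythdf4c, 1 of the 3 libraries held a single count (0.0501 CPM) and the others none, against 3875 counts in the 3 NIP libraries. The ratio of NIP to osythdf4c was 3140, with an exact 95% interval of 564 to 124000 that covers counting error only. This contrast was already known when the gene was chosen and is given as a description. The fitted value rests on that 1 count: the log2 fold change was -11.31, and -13.16 without osythdf4c replicate 2.

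In the other lines labelled NIP, OsLEA3-1 stood at means of 0.118 CPM in RNAi-OsYTHDF2C and 0.181 CPM in OE-OsYTHDF1A, where it was nearly undetected (7 and 10 counts per group). It stood at 0.319 CPM in osythdf2b, 0.34 CPM in osythdf3c, 0.781 CPM in osythdf1b and 1.09 CPM in osythdf3b. The order went on with 1.74 CPM in osythdf1c, 1.9 CPM in RNAi-OsYTHDC1A and 5.74 CPM in osythdf5c. No library of these lines overlapped the NIP wild type. Here and below, how many of all genes show no overlap was not counted. OsbZIP23 and OsbZIP46 also had no overlap with NIP in any of the 10 lines, though 4 and 3 of those lines were not called. A lack of overlap is therefore given as a description only. The smallest change was in osythdf5c, with a log2 fold change of -3.3 (SE 0.1, edgeR adjusted p = 6.5e-37). Neighbouring groups in this order mostly lay close together, and in 7 of 14 neighbouring pairs over all groups the libraries overlapped.

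The DJ wild type did not share the NIP level of OsLEA3-1. It had 3.48, 4.39 and 4.9 CPM, and the log2 fold change of DJ over NIP was -3.99 (SE 0.11, edgeR adjusted p = 2.5e-47). Within the DJ background, osythdf3a had 1.41, 0.731 and 1.4 CPM and lay below every DJ library. Its log2 fold change was -1.6 (SE 0.22, edgeR adjusted p = 4e-09), and -1.77 without replicate 3. In osythdf2a the gene was above every DJ library, with a log2 fold change of 0.69 (SE 0.17, edgeR adjusted p = 0.00059). In osythdf1a, with 3.88, 3.8 and 3.55 CPM, the libraries overlapped those of DJ and the log2 fold change of 0.06 (SE 0.17, edgeR adjusted p = 0.75) took the other sign with library totals, at -0.19.

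**Figure D1:**
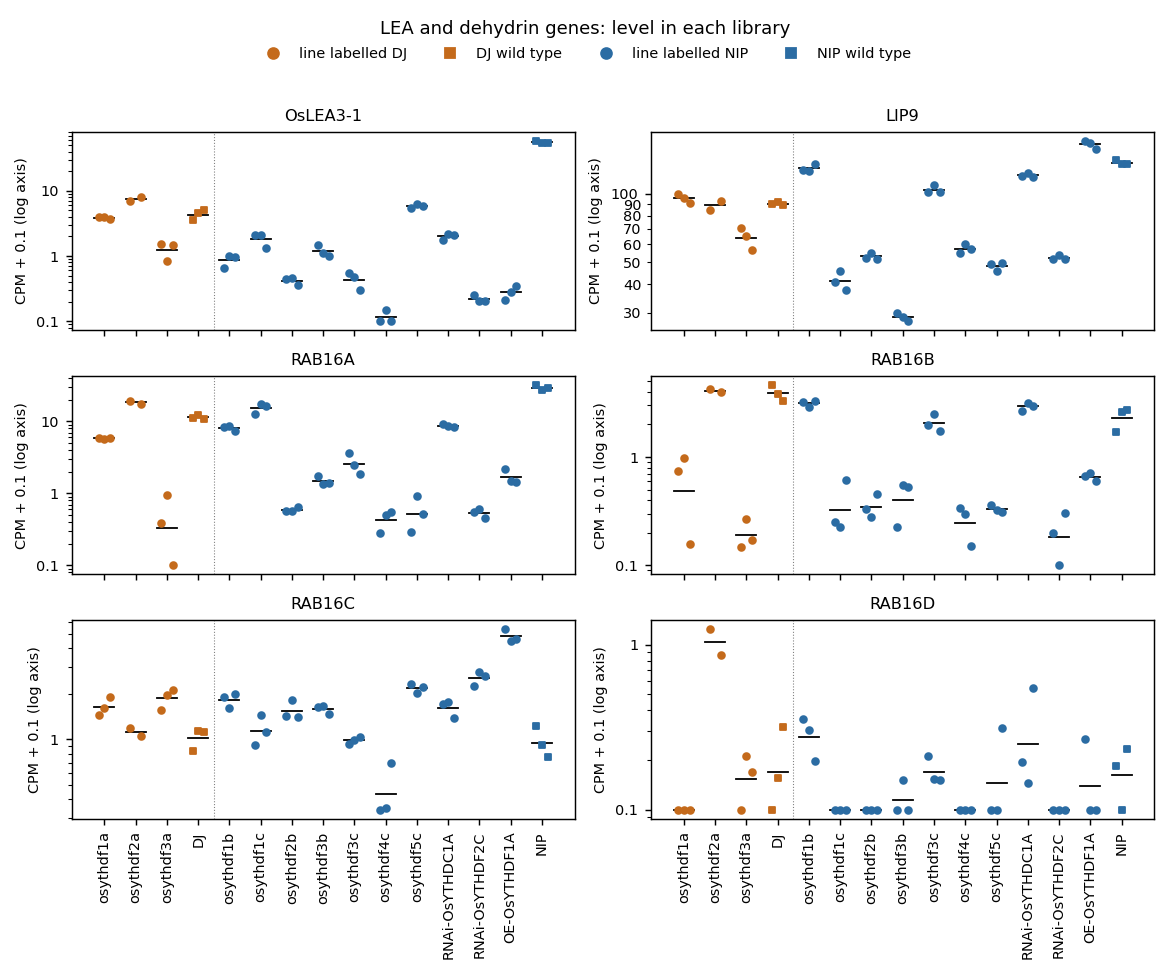
Level of the LEA and dehydrin genes in each library (points, CPM + 0.1 on a log axis) by group, with lines in circles, wild types in squares, and the mean of the plotted log values of a group as a bar. The dotted line parts the DJ groups on the left from the NIP groups on the right. The NIP wild type stands above all other groups for OsLEA3-1 and RAB16A, and points at 0.1 are libraries with no count.

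RAB16A, the dehydrin gene long used in rice to study induction by ABA, had its second highest level in osythdf2a, at 19.2 and 17.4 CPM, below the NIP wild type at 32, 27.5 and 29.2 CPM. Of the lines labelled NIP, osythdf1c was nearest to the control, with 12.7, 17.6 and 16.2 CPM and a log2 fold change of -0.97 (SE 0.1, edgeR adjusted p = 3.6e-12). Both osythdf1b, at 8.05 ± 0.72 CPM, and RNAi-OsYTHDC1A, at 8.68 ± 0.35 CPM, lay well under the NIP level of 29.6 ± 2.3 CPM (SD, n = 3 each).

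RAB16A fell further in the remaining lines labelled NIP, and none of their libraries overlapped NIP. It had 0.182, 0.401 and 0.447 CPM in osythdf4c, 0.195, 0.812 and 0.422 CPM in osythdf5c, 0.448, 0.507 and 0.359 CPM in RNAi-OsYTHDF2C and 0.463, 0.476 and 0.556 CPM in osythdf2b. Log2 fold changes in these 4 lines ranged from -6.51 in osythdf4c to -6.0 in osythdf5c, and the osythdf5c value was -6.59 without its replicate 2. Intermediate levels were found in osythdf3b (1.39 ± 0.2 CPM), OE-OsYTHDF1A (1.61 ± 0.41 CPM) and osythdf3c (2.56 ± 0.91 CPM, SD, n = 3 each).

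In the DJ background, RAB16A stood at 0.292, 0.844 and 0 CPM in osythdf3a, against 11.2, 12.1 and 10.8 CPM in DJ. Its log2 fold change was -4.57 (SE 0.24, edgeR adjusted p = 3.3e-18), with -4.16 without replicate 3 and -5.73 without replicate 2. The gene fell less in osythdf1a, at 5.82, 5.63 and 5.85 CPM and a log2 fold change of -0.73 (SE 0.14, edgeR adjusted p = 1.9e-05). It was higher in osythdf2a by 0.58 on the log2 scale (SE 0.13, edgeR adjusted p = 0.00034). With limma on log2(FPKM + 0.1) neither of the last 2 changes was called (limma adjusted p = 0.093 in osythdf1a and 0.37 in osythdf2a).

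The other RAB16 dehydrin genes lie beside RAB16A on chromosome 11. In the RefSeq order, no gene separates RAB16A from RAB16B or RAB16C from RAB16D, and 2 genes lie between RAB16B and RAB16C. RAB16B had a lower mean level per length than RAB16A in all 15 groups, with 3.68 ± 0.65 and 9.42 ± 0.56 FPKM in DJ and 2.15 ± 0.53 and 24.5 ± 1.9 FPKM in NIP (SD, n = 3 each). In osythdf3c the means were 1.9 and 2.12 FPKM, and the libraries of the 2 genes overlapped. They also overlapped, at low counts, in osythdf3a, osythdf4c and osythdf5c. The highest level of RAB16B was 4.11 and 3.85 CPM in osythdf2a, beside 4.52, 3.73 and 3.18 CPM in DJ, and these libraries overlapped.

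RAB16B was called lower in 7 of 10 lines labelled NIP, and none was higher. The lowest of them was RNAi-OsYTHDF2C, with 0.0995, 0 and 0.205 CPM against 1.6, 2.5 and 2.6 CPM in NIP, and a log2 fold change of -4.48 (SE 0.42, edgeR adjusted p = 1.6e-14), which was -5.41 without its replicate 3. The change in osythdf1c was -3.07, and -3.94 without its replicate 3. It was not called in osythdf1b (3.03 ± 0.21 CPM), RNAi-OsYTHDC1A (2.84 ± 0.26 CPM) or osythdf3c (1.97 ± 0.37 CPM, called lower without osythdf3c replicate 2 or NIP replicate 1), against 2.23 ± 0.55 CPM in NIP (SD, n = 3 each). In the DJ background, RAB16B fell in osythdf3a to 0.0487, 0.169 and 0.0701 CPM (log2 fold change -4.98, SE 0.46, edgeR adjusted p = 2.6e-12), with -4.9 without replicate 3 and -5.63 without replicate 2. It also fell in osythdf1a, where the libraries spread widely at 0.647, 0.886 and 0.0563 CPM.

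RAB16C moved the other way in most lines. OE-OsYTHDF1A had 5.24, 4.35 and 4.51 CPM, against 1.13, 0.818 and 0.66 CPM in NIP, with no overlap and a log2 fold change of 2.56 (SE 0.2, edgeR adjusted p = 1.8e-17). It was also higher in RNAi-OsYTHDF2C (log2 fold change 1.37), osythdf5c (1.23), osythdf3b (0.84), osythdf1b (0.74) and osythdf2b (0.58). The last call was weak: the adjusted p was 0.037 with edgeR's quasi-likelihood test and 0.061 with DESeq2, and it reached 0.17 without NIP replicate 3. It was not called in RNAi-OsYTHDC1A (log2 fold change 0.48, edgeR adjusted p = 0.065) but was with library totals (0.8, edgeR adjusted p = 0.0024). In osythdf4c, with 0.242, 0.251 and 0.596 CPM, RAB16C was lower than in every NIP library (log2 fold change -1.37, SE 0.33, edgeR adjusted p = 0.00027). In the DJ background it was higher in osythdf1a, by 0.97, and in osythdf3a, by 1.15 and by 1 without replicate 3. In osythdf2a its fitted log2 change was 0 (SE 0.35).

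RAB16D was close to the detection limit. Its highest level was in osythdf2a, at 1.14 and 0.761 CPM, against 0, 0.0548 and 0.215 CPM in DJ. Both osythdf2a libraries stood above all 3 DJ libraries, and no test is given for this difference, because osythdf2a is the group through which RAB16D passed the filter. The other groups held between 0 and 12 counts in all their libraries together, and 5 groups held none, which allows up to 3 counts per group. In osythdf1a, with 0 counts against 5 in DJ, the fitted drop was called at an edgeR adjusted p of 0.048. That call was lost under 10 alternatives, with an adjusted p of 0.056 with the replicate block and 0.3 without DJ replicate 3.

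The make-up of the RAB16 counts differed between groups. RAB16A took 92.2% ± 0.76 of the summed RAB16 counts in osythdf1c and 90.2% ± 1.4 in NIP (SD, n = 3 each). RAB16C was the main member in RNAi-OsYTHDF2C, with 81.8% ± 2.3, and in osythdf3a, with 79% ± 16 (71.7% without replicate 3), as well as in osythdf5c (73.1% ± 9.1), OE-OsYTHDF1A (68.1% ± 3) and osythdf2b (65.8% ± 6.7). In NIP it took 2.65% ± 0.62 and in DJ 5.77% ± 1.2. The summed level of the family was 0.87 CPM in osythdf4c and 32.7 CPM in NIP, so that shares in osythdf4c rest on few counts.

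**Figure D2:**
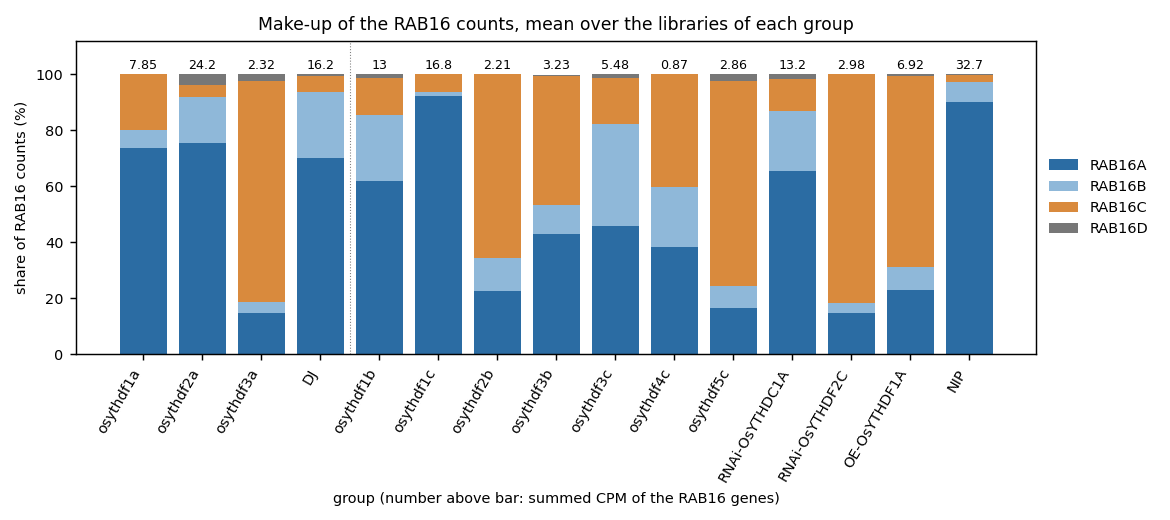
Share of the RAB16 counts taken by RAB16A, RAB16B, RAB16C and RAB16D in each group (stacked bars, percent, mean over the libraries of the group), with the summed CPM of the 4 genes above each bar. RAB16A takes most counts in NIP, DJ and osythdf1c, and RAB16C takes most in RNAi-OsYTHDF2C, osythdf3a, osythdf5c, OE-OsYTHDF1A and osythdf2b.

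LIP9, a dehydrin gene known in rice for induction by cold and drought, was the most strongly expressed of the 6 LEA and dehydrin genes per unit of length, at 99.9 ± 2.7 FPKM (counts scaled by library total and gene length) in NIP. OsLEA3-1 had 42.8 ± 2 FPKM and RAB16A 24.5 ± 1.9 FPKM in the same libraries (SD, n = 3 each). LIP9 varied least of the 6, with an SD between group means of 0.73 on log2(CPM + 0.1). Its group means lay between 28.5 CPM in osythdf3b and 165 CPM in OE-OsYTHDF1A.

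OE-OsYTHDF1A was the single line labelled NIP in which LIP9 was higher. It had 171, 167 and 157 CPM, against 141, 135 and 135 CPM in NIP, with no overlap and a log2 fold change of 0.41 (SE 0.04, edgeR adjusted p = 4e-12). In osythdf3b it had 29.7, 28.5 and 27.4 CPM (log2 fold change -2.19, SE 0.05, edgeR adjusted p = 1.2e-42). Log2 fold changes of -1.76 to -1.41 were found in osythdf1c, osythdf5c, osythdf2b, RNAi-OsYTHDF2C and osythdf4c. The drop was smaller in osythdf3c (-0.68), RNAi-OsYTHDC1A (-0.5) and osythdf1b (-0.33). The osythdf1b libraries, at 127, 126 and 135 CPM, overlapped the NIP range, and that call was lost with library totals (-0.08, edgeR adjusted p = 0.079).

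Within the DJ background LIP9 changed little. It was lower in osythdf3a, at 70.9, 65.2 and 56.4 CPM against 89.6, 91.6 and 88.8 CPM in DJ (log2 fold change -0.23, and -0.21 without replicate 3). The call in osythdf1a, 0.34, was lost with library totals (0.09, edgeR adjusted p = 0.2). That in osythdf2a, -0.11 at an edgeR adjusted p of 0.039, was lost under 8 alternatives, with DESeq2 among them (adjusted p = 0.11). Between the wild types LIP9 was lower in DJ by 0.9 on the log2 scale (SE 0.05, edgeR adjusted p = 2.9e-30).

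Among the regulators, OsNCED3, the ABA synthesis gene, was the weakest, at 0.292 ± 0.097 FPKM in DJ and 0.929 ± 0.091 FPKM in NIP (SD, n = 3 each). It was highest in osythdf1c, with 4.09, 4.68 and 5.37 CPM, against 2.48, 2.24 and 2.73 CPM in NIP. These groups did not overlap, and the log2 fold change was 0.89 (SE 0.18, edgeR adjusted p = 1.1e-05). In osythdf5c it was higher by 0.49 (SE 0.19, edgeR adjusted p = 0.023), a call lost without NIP replicate 2 (adjusted p = 0.086) and without osythdf5c replicate 3 (adjusted p = 0.11).

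OsNCED3 fell most in osythdf4c, which had 0, 0.0501 and 0.199 CPM (log2 fold change -4.86, SE 0.38, edgeR adjusted p = 2.6e-17, and -6.34 without its replicate 3). In osythdf3c it had 0.333, 0.211 and 0.412 CPM and a log2 fold change of -3.21. It was also lower in RNAi-OsYTHDC1A (-1.53), RNAi-OsYTHDF2C (-1.42), osythdf1b (-1.37) and osythdf3b (-0.78). In OE-OsYTHDF1A (0.33, edgeR adjusted p = 0.12) and osythdf2b (-0.02, edgeR adjusted p = 0.94, and 0.13 with library totals) it was not called.

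The lines labelled DJ differed from each other in OsNCED3. It was higher in osythdf1a, with 2.21, 3.28 and 2.81 CPM against 0.488, 0.987 and 0.861 CPM in DJ (log2 fold change 2.06, SE 0.28, edgeR adjusted p = 3.4e-09). It was higher in osythdf3a by 1.11, and by 0.92 without replicate 3. In osythdf2a it was lower, with 0.127 and 0.285 CPM from 8 counts in all (log2 fold change -1.92, SE 0.52, edgeR adjusted p = 0.0018), with -2.66 without its replicate 3, and was not called with limma on log2(FPKM + 1) (adjusted p = 0.064).

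SNAC1, which promotes stomatal closure in rice, had the widest range of the transcription factor genes. It was highest in osythdf1a, at 385, 352 and 375 CPM, against 102, 106 and 104 CPM in DJ. Every osythdf1a library was above every other library of the series by at least 169 CPM, and the log2 fold change was 2.08 (SE 0.04, edgeR adjusted p = 5.8e-38). It was also higher in osythdf3a (151, 136 and 123 CPM, log2 fold change 0.65, and 0.66 without replicate 3) and osythdf2a (137 and 128 CPM, 0.25), with no library overlapping DJ.

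In 9 of 10 lines labelled NIP, SNAC1 was lower than in the NIP wild type. The lowest level was in osythdf1b, at 23.8, 22.6 and 21.1 CPM against 125, 117 and 120 CPM in NIP (log2 fold change -2.67, SE 0.07, edgeR adjusted p = 2.3e-26). Next in size came osythdf3c (-2.28), osythdf5c (-2.09) and OE-OsYTHDF1A (-1.8), then RNAi-OsYTHDC1A (-1.32), osythdf4c (-1.03), osythdf3b and RNAi-OsYTHDF2C (both -0.97). The change in osythdf2b was -0.21, its libraries overlapped NIP, and the call was lost with library totals (-0.07, edgeR adjusted p = 0.29). In osythdf1c, with 157, 183 and 151 CPM, SNAC1 was higher (log2 fold change 0.41, SE 0.06, edgeR adjusted p = 4e-07).

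**Figure D3:**
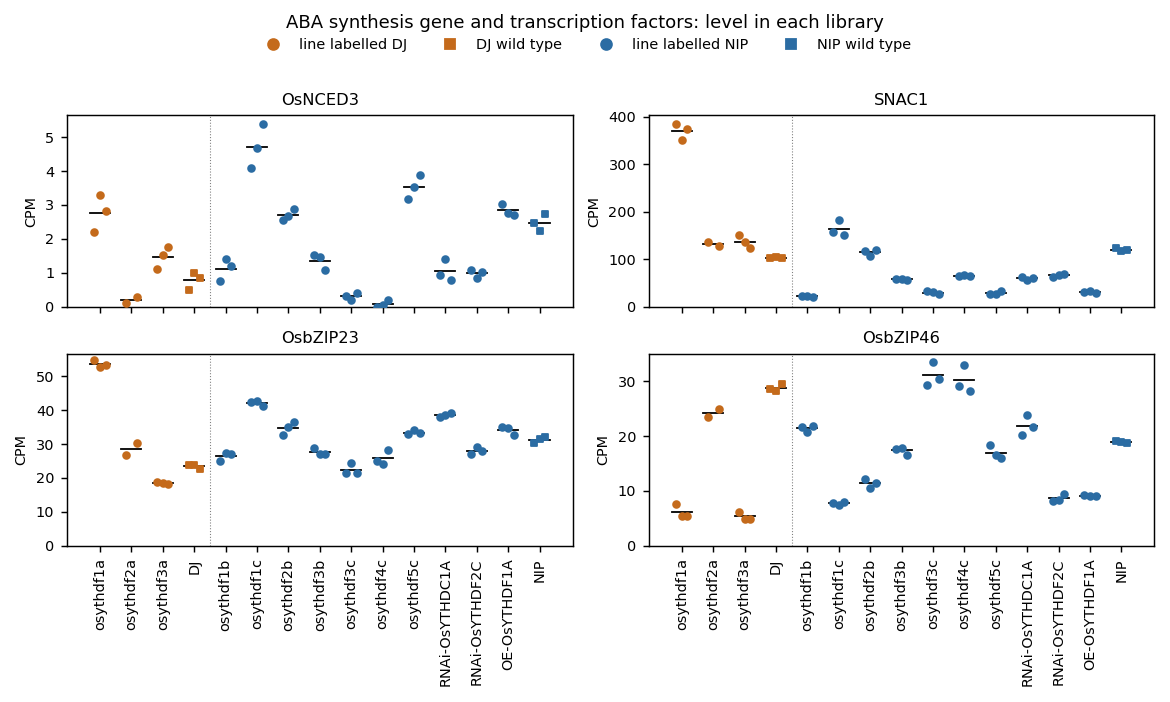
Level of OsNCED3, SNAC1, OsbZIP23 and OsbZIP46 in each library (points, CPM on linear axes that start at 0) by group, with lines in circles, wild types in squares and group means as bars. SNAC1 and OsbZIP23 are highest in osythdf1a, and OsbZIP46 is low in osythdf1a and osythdf3a next to DJ.

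OsbZIP23, a bZIP factor that activates ABA-responsive genes in rice, varied least of the 10 genes. Its group means lay between 18.6 CPM in osythdf3a and 53.6 CPM in osythdf1a. The osythdf1a libraries had 54.7, 52.8 and 53.2 CPM, against 23.9, 23.7 and 22.6 CPM in DJ, and the log2 fold change was 1.45 (SE 0.06, edgeR adjusted p = 2.1e-28). The gain of 0.2 in osythdf2a (edgeR adjusted p = 0.018) was lost with DESeq2 (adjusted p = 0.061) and without osythdf2a replicate 3 (adjusted p = 0.44). In osythdf3a it was not called, with a log2 fold change of -0.08 (edgeR adjusted p = 0.3), and -0.13 without replicate 3, although all 3 libraries had lower CPM than those of DJ and it was called lower with library totals (-0.33, edgeR adjusted p = 0.00028).

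In the NIP background OsbZIP23 was higher in osythdf1c, at 42.4, 42.8 and 41.1 CPM against 30.3, 31.4 and 32.1 CPM in NIP (log2 fold change 0.4, SE 0.06, edgeR adjusted p = 7.5e-09). It was higher in OE-OsYTHDF1A by 0.27, which was lost with library totals (0.13, edgeR adjusted p = 0.051). It was lower in osythdf3c (-0.76), osythdf1b (-0.49), osythdf4c (-0.43) and RNAi-OsYTHDF2C (-0.26). It was not called in the other 4 lines, though library totals gave calls of higher in osythdf2b (0.16) and lower in osythdf3b (-0.18). In RNAi-OsYTHDC1A the value was -0.01 with TMM but 0.3 with library totals, where it was called higher (edgeR adjusted p = 1.7e-06).

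OsbZIP46, a relative of OsbZIP23 whose activity depends on phosphorylation by kinases of the ABA pathway, was lower in all 3 lines labelled DJ. It had 6.13, 4.95 and 4.91 CPM in osythdf3a and 7.6, 5.37 and 5.4 CPM in osythdf1a, against 28.6, 28.3 and 29.5 CPM in DJ. The log2 fold changes were -2.17 (SE 0.1, edgeR adjusted p = 4.5e-26), unchanged at 2 decimals without replicate 3, in osythdf3a and -1.98 (SE 0.1, edgeR adjusted p = 3.1e-25) in osythdf1a. The smaller drop in osythdf2a, -0.35, was not called with limma on log2(FPKM + 1) (adjusted p = 0.14).

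In the NIP background OsbZIP46 was lower in osythdf1c (7.77, 7.44 and 7.97 CPM, against 19.1, 18.9 and 18.7 CPM in NIP), with a log2 fold change of -1.32 (SE 0.09, edgeR adjusted p = 4.5e-21). It was also lower in RNAi-OsYTHDF2C (-1.24), OE-OsYTHDF1A (-0.91) and osythdf2b (-0.88). The call in osythdf5c, -0.18 at an edgeR adjusted p of 0.043, was lost under 10 alternatives. It was higher in osythdf4c (29.2, 32.9 and 28.3 CPM, log2 fold change 0.52) and in osythdf3c (29.3, 33.5 and 30.4 CPM, 0.43), with no overlap with NIP in either. It was not called in osythdf3b (-0.05), nor in osythdf1b (-0.06) and RNAi-OsYTHDC1A (-0.1), where library totals gave 0.18 and 0.21 and calls of higher (edgeR adjusted p = 0.018 and 0.0056). Without RNAi-OsYTHDC1A replicate 2, OsbZIP46 was instead called lower in that line (-0.17, edgeR adjusted p = 0.048).

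Of the 10 loci, 7 were called between the wild types, 1 higher and 6 lower in DJ, where 37.7% of all genes were called higher and 37.4% lower. Besides OsLEA3-1 and LIP9, DJ was lower than NIP in RAB16A (log2 fold change -1.67), OsNCED3 (-1.94), OsbZIP23 (-0.71) and SNAC1 (-0.51). OsbZIP46 was higher in DJ, by 0.31. RAB16B was not called at 0.47 (SE 0.22, edgeR adjusted p = 0.051), a value that passed the threshold with library totals (0.77, edgeR adjusted p = 0.0014). It was also called higher with DESeq2 size factors (0.51), no filter (0.48), only the 2 groups compared (0.49) and limma on log2(FPKM + 1) (0.57). The same held without DJ replicate 3, NIP replicate 2 or NIP replicate 3, and it stayed uncalled under the remaining alternatives.

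The gene OsYTHDF1A is altered both ways in the series, by knockout in DJ and by overexpression in NIP. The background differs, so the values are set side by side only. SNAC1 had a log2 fold change of 2.08 in osythdf1a over DJ and -1.8 in OE-OsYTHDF1A over NIP. It was, however, higher in all 3 lines labelled DJ and lower in 9 of the 10 labelled NIP. OsbZIP46 had log2 fold changes of -1.98 and -0.91. RAB16A was lower in both, with -0.73 in osythdf1a and -4.06 in OE-OsYTHDF1A. RAB16C was higher in both, with 0.97 in osythdf1a and 2.56 in OE-OsYTHDF1A. In the same order, LIP9 (0.34 and 0.41) and OsbZIP23 (1.45 and 0.27) were higher in both. The LIP9 call in osythdf1a and the OsbZIP23 call in OE-OsYTHDF1A were lost with library totals. RAB16B was lower in both (-2.55 and -1.86). OsLEA3-1 had 0.06 (not called) and -8.05, and OsNCED3 had 2.06 and 0.33 (not called).

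On log2(CPM + 0.1), the SD between the 15 group means was 2.33 for OsLEA3-1 and 2.24 for RAB16A, with SDs between replicates of 0.29 and 0.53. For RAB16B these SDs were 1.69 between groups and 0.58 between replicates, for RAB16C 0.78 and 0.25, and for LIP9 0.73 and 0.08. RAB16D had 0.88 and 0.55 at a mean of 0.118 CPM, which is below the mean of 1 CPM that the comparison genes had to reach. The median of 23230 genes was 0.5 between groups and 0.12 between replicates. SNAC1 had 1.12 between groups and 0.09 within, OsNCED3 1.4 and 0.35, and OsbZIP23 0.38 and 0.06.

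Correlations over the 15 group means are given as descriptions, since the points share backgrounds and sequencing depth. RAB16A ranked groups much as RAB16B did (Spearman's rho 0.83) and less so as OsLEA3-1 did (0.68, and 0.6 without NIP). OsNCED3 ran with OsbZIP23 (0.64) and against OsbZIP46 (-0.74). The correlation of OsLEA3-1 with OsNCED3 was 0.19 and with OsbZIP23 0.22. The summed shoot marker level correlated with OsNCED3 at 0.68, with OsbZIP46 at -0.73 and with RAB16D at -0.7, and its part in these results was not tested. The RAB16D value rests on few counts and tied groups, as its mean over the groups was 0.118 CPM. For OsLEA3-1 the correlations were -0.21 with the shoot and -0.18 with the root markers, and for RAB16A -0.21 and -0.12.

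Over the same 15 group means, the loci most like OsLEA3-1 by Spearman's rho among 23229 were LOC_Os12g37519 (0.9), LOC_Os01g15900 (0.87) and LOC_Os03g60570 (0.86). LOC_Os12g37519 had 1.86 CPM in osythdf4c and 20.2 CPM in NIP, the lowest and the highest of its group means. LOC_Os01g15900 was also highest in NIP, but LOC_Os03g60570 was highest in osythdf1a, at 8.56 CPM against 2.2 CPM in NIP. The loci most like RAB16A were LOC_Os01g43040 and LOC_Os03g48750 (both 0.85), and the third was a feature without a locus ID (0.84). None of them was highest in NIP: LOC_Os03g48750 was highest in RNAi-OsYTHDC1A and the others in DJ. For both genes the loci were picked as the highest of 23229 values over only 15 points. How high such values run between unrelated loci was not tested, so the likeness is a description only.

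Other genes of the ABA pathway were counted by class, with locus IDs assigned from a list drawn up for this purpose, since the files annotate none of them. Of all tests in the 10 NIP comparisons, 34.2% were calls of higher and 32.3% of lower, and in the 3 DJ comparisons 31.1% and 35.9%. Of 5 other ABA synthesis loci, 12 of 50 tests in the lines labelled NIP were higher and 33 lower. One of them, LOC_Os07g05940, had at most 1.77 ± 0.19 CPM in a line labelled NIP (osythdf1c), against 8.95 ± 0.45 CPM in NIP (SD, n = 3 each), and was called in all 14 comparisons. In the lines labelled DJ, 6 of 15 tests were higher and 7 lower.

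The 3 loci of ABA 8′-hydroxylase, the enzyme that breaks ABA down, had 7 higher and 18 lower of 30 tests in the lines labelled NIP. In those labelled DJ, they had 6 higher and 2 lower of 9. LOC_Os02g47470 of this class stood at 222 ± 5.8 CPM in osythdf1a, 61.6 ± 1.5 CPM in DJ and 4.9 ± 0.33 CPM in NIP (SD, n = 3 each). All 7 higher calls of the class in the lines labelled NIP were of this locus, with the largest log2 fold change, 3.3, in osythdf1c. It was lower in osythdf3b and OE-OsYTHDF1A and not called in osythdf4c. The PYL receptor loci had 10 higher and 31 lower of 60 tests in the lines labelled NIP, and 5 higher and 7 lower of 15 in those labelled DJ.

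The clade A PP2C loci, whose products hold the pathway off, had 18 higher and 47 lower of 90 tests against NIP. Against DJ they had 11 higher and 6 lower of 27, which became 7 and 7 with library totals. With that scaling, 24.6% of the tests of all genes against DJ were higher and 38.9% lower, where TMM gave 31.1% and 35.9%. The SnRK2 kinase loci were more evenly split against NIP, with 43 higher and 37 lower of 100 tests. Against DJ they had 14 higher and 6 lower of 30. For the other ABA bZIP and B3 factors the counts were 13 higher and 18 lower of 50 against NIP, and 3 higher and 6 lower of 15 against DJ (2 and 8 with library totals). For the other stress NAC factors they were 19 higher and 20 lower of 50 against NIP, and 9 higher and 3 lower of 15 against DJ (7 and 4 with library totals).

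Other LEA, dehydrin and ASR loci had 32 higher and 37 lower of 80 tests against NIP (40% and 46.2%, beside 34.2% and 32.3% of all genes), with median log2 fold changes between -1.03 in osythdf1c and 0.51 in OE-OsYTHDF1A. The split was most uneven in osythdf3c, with 2 higher and 6 lower of 8 (all genes, 41.8% and 36.7%). More loci were higher than lower in osythdf3b, osythdf4c and RNAi-OsYTHDF2C. The list had 9 higher and 5 lower of 21 against DJ (all genes, 31.1% and 35.9%). With library totals it had 7 and 7 (all genes, 24.6% and 38.9%). LOC_Os11g06720 of this class was called in all 14 comparisons. It was higher in 4 of the 10 lines set against NIP, with 4580 ± 36 CPM in OE-OsYTHDF1A, 3670 ± 190 CPM in osythdf4c, 3230 ± 42 CPM in osythdf3b and 2950 ± 58 CPM in RNAi-OsYTHDF2C, against 2550 ± 59 CPM in NIP (SD, n = 3 each). In the other 6 lines it was lower, with means between 1090 CPM in RNAi-OsYTHDC1A and 1950 CPM in osythdf5c.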

How the data were processed

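The submitters' processing notes name HISAT2, featureCounts and the build IRGSP-1.0. No version or setting of either tool is given in the sources used here. The authors deposited raw counts per gene and FPKM values made from them. A further 40 columns in each table match no sample of the series and were not used. The test used R 4.3.3 and edgeR 4.0.16 on the counts: filterByExpr, TMM, robust dispersions and the two-sided quasi-likelihood test, in 1 fit each for the 33 NIP libraries (27584 genes), the 11 DJ libraries (26925 genes) and all 44 (28833 genes, DJ against NIP). The biological coefficient of variation was 4.6%, 5.39% and 4.83%. The SE is the size of the log2 fold change divided by the square root of F. CPM were computed from library totals. Spearman correlations between loci used group means of CPM, and a pseudocount of 0.1 CPM was used in measures of spread. Loci other than the 10 needed a mean of 1 CPM to enter either. Other loci were named by likeness to OsLEA3-1 or RAB16A (the 3 highest correlations) or as the locus of a class with the most calls. The test was checked on simulated data.

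The 10 genes and all lists were chosen with earlier results of these data known. A locus was taken off the LEA list after its values were seen because its class was doubtful. The design text calls the replicates biological, and p-values reflect only how much these libraries differed. No libraries were merged, since the 43 replicate pairs differed by more than counting noise (chi-square per degree of freedom 1.58 to 120, median 2.4). Intervals are exact at 95%, the floor for no counts is 3 counts per group, and both cover counting error only. Alternatives were DESeq2 1.42.0 and its size factors, library totals, no filter, only the 2 groups compared, the replicate block, limma 3.58.1 on log2 FPKM with a pseudocount of 1 or of 0.1, and each library left out. No genome or sequence table of the files' build was used, so no sequences or coordinates are given.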

Additional observations from a re-analysis of the deposited data

How the results depend on the processing

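All 107 called log2 fold changes kept their direction under every alternative run, and 55 of their 1490 alternative values fell short of the threshold. The count of loci called stayed within 1.5 times its reported value in 190 of 195 alternatives. In RNAi-OsYTHDC1A the 5 calls became 8 with library totals, 8 with limma on log2(FPKM + 0.1) and 9 with limma on log2(FPKM + 1). In osythdf2a the 8 calls became 5 with either limma setting. With each library left out in turn, counts lay between 5 and 9.

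Of the 23 values that were not called, 13 changed sign under some alternative, and the cause was not tested. With library totals, limma on FPKM + 0.1 and limma on FPKM + 1, in that order, OsLEA3-1 in osythdf1a was -0.19, -0.17 and -0.13. OsNCED3 in osythdf2b was 0.13, 0.11 and 0.06. OsbZIP23 in RNAi-OsYTHDC1A was 0.3, 0.3 and 0.29, and OsbZIP46 there 0.21, 0.2 and 0.19. OsbZIP46 in osythdf1b was 0.18, 0.18 and 0.16. RAB16B in osythdf2a was 0.07, 0.08 and 0.06. RAB16C was 0.1, 0.11 and 0.06 in DJ against NIP and 0.02, 0.05 and 0.02 in osythdf3c. OsbZIP23 in RNAi-OsYTHDC1A was 0.00047 with DESeq2 and 0.00046 with its size factors. RAB16C in osythdf2a was -0.0015 with DESeq2 size factors and -0.0018 with no filter, and RAB16B there was 0.04 with only the 2 groups compared.

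With a library left out, the fold changes that changed sign ranged from -0.06 to 0.17 for OsLEA3-1 in osythdf1a and from -0.09 to 0.06 for OsNCED3 in osythdf2b. OsbZIP23 ranged from -0.03 to 0.01 in RNAi-OsYTHDC1A and from -0.03 to 0.05 in osythdf2b. RAB16B ranged from -0.15 to 0.16 in RNAi-OsYTHDC1A and from -0.15 to 0.1 in osythdf2a. RAB16C ranged from -0.35 to 0.04 in DJ against NIP and from -0.14 to 0.09 in osythdf2a. RAB16D ranged from -1.39 to 0.76 in DJ against NIP and from -1.26 to 1.05 in osythdf3a.

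Libraries with the same replicate number were not seen to deviate together by the rule used, as no comparison had every pair's correlation over 0.1. That rule cannot exclude a weaker shared deviation. Both osythdf2a pairs were positive (0.07 and 0.088), while every osythdf1b pair was negative (-0.11 to -0.056). The replicate block moved the calls in osythdf1a to 8, where 9 were reported, through RAB16D alone. It gave RAB16B in osythdf2a a value of 0.09, where -0.03 was reported. No other call changed with it.

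Depth limits RAB16D in all groups, RAB16B and OsNCED3 in the groups below 0.3 CPM, and OsLEA3-1 in osythdf4c, RNAi-OsYTHDF2C and OE-OsYTHDF1A. Counts were also few, at 20 to 27 per group, for RAB16A in osythdf4c, osythdf5c, osythdf3a, RNAi-OsYTHDF2C and osythdf2b. They were 17 and 19 for OsLEA3-1 in osythdf2b and osythdf3c, 21 for RAB16C in osythdf4c and 18 for OsNCED3 in osythdf3c. Leaving out 1 of the 2 osythdf2a libraries assumes that the lone library varies like the other groups. Every line is set against 1 shared wild type group, so a level particular to the NIP libraries enters all 10 comparisons.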
